A study of Homo sapiens with 8 samples.

Results

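The genes described here encode subunits of the nicotinic acetylcholine receptor. They were chosen by name from the gene symbols of the count table, and the 10 members, CHRNA1, CHRNA2, CHRNA3, CHRNA4, CHRNA5, CHRNA7, CHRNA9, CHRNB1, CHRNB2 and CHRNB4, are 10 of the 60659 genes in it. Nicotinic receptors are ligand-gated cation channels built from 5 subunits around a pore that opens when acetylcholine binds. Alpha subunits carry the main face of the binding site, most beta subunits complete it, and the mixture of subunits sets the affinity for nicotine and the permeability to calcium. In autonomic ganglia, whose sympathetic neurons share their lineage with neuroblastoma, fast transmission runs chiefly through receptors of the alpha 3 and beta 4 subunits, with the alpha 5 and beta 2 subunits as partners, and the genes for alpha 5, alpha 3 and beta 4 lie side by side on chromosome 15.

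RNA was depleted of ribosomal RNA and sequenced from SK-N-SH, a human neuroblastoma cell line, with 2 biological replicates in each of 4 groups. All 4 groups were cultured with 10 μM all-trans retinoic acid (ATRA) for 24 h, which drives these cells towards a neuronal state, so no group shows the cells without ATRA. Parental cells received doxycycline (Dox), and ZMYND8 OE cells carried FLAG ZMYND8 under a Dox-inducible promoter from a lentivirus, were selected with G418 and received Dox too. KD control and ZMYND8 KD cells formed a separate experiment, in which ZMYND8, a chromatin reader, was silenced. How it was silenced in these cells, and what the KD control carried, is not given in the sources used here. No vector is named for the Parental cells, and nothing in the labels says whether the OE or KD cells were clones or pools. Gene counts per library totalled 38316523 to 56256979. ZMYND8 itself had 3089 and 3612 counts in Parental cells against 220691 and 182849 in ZMYND8 OE cells, and 3128 and 3374 in KD control against 1641 and 1640 in ZMYND8 KD cells. Thus the knockdown was partial, to 0.522 of the control level. Sympathetic markers fixed for the check of the cell type (DBH, ISL1, GATA3, CHGA and STMN2) were counted in every library, whereas TH, the enzyme that starts catecholamine synthesis, had 0 to 5 counts.

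The stretches just before the transcription start of several members are shown here because CHRNA3, CHRNB4 and CHRNB2 moved together in the comparisons that follow, whereas CHRNA9 moved the other way. They come from RefSeq promoter windows on GRCh38.p14, which hold an entry for 7 of the 10 members. The RefSeq starts can differ from the gene ends in the count table. The windows of CHRNA3, CHRNB4, CHRNA7 and CHRNA1 lie inside the gene spans given below. Capitals mark GC boxes, searched as GGGCGG on both strands (CCGCCC on the other), the short motif that SP family factors can bind. At least 1 GC box was present in 42.6% of the 35116 windows of 250 bases in the table. CHRNA3 is shown for bases 46 to 17 before its start (chr15:78621013-78621042, minus strand), CHRNB4 for bases 250 to 36 (chr15:78641246-78641460, minus strand), CHRNB2 for 250 bases (chr1:154567528-154567777, plus strand) and CHRNA9 for 250 bases (chr4:40335083-40335332, plus strand).
CHRNA3: CCGCCCcgcgcacgcCCGCCCGCCCGCCCg
CHRNB4: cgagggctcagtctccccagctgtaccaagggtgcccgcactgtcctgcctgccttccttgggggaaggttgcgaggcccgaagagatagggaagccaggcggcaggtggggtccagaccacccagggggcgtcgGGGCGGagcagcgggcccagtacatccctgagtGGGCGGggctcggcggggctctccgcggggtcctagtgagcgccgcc
CHRNB2: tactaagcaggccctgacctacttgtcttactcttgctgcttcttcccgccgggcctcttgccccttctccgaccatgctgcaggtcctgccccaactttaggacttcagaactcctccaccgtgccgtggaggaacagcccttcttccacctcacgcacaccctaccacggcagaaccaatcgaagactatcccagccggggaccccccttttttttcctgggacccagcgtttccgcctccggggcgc
CHRNA9: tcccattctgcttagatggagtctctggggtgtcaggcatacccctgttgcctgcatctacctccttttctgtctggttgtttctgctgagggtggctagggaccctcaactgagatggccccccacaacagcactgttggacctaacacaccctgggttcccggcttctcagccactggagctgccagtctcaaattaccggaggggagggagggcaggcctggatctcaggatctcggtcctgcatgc
The 250-base windows of CHRNA3 and CHRNB4 held 4 and 3 GC boxes and were 73.6% and 72.4% G or C. The median over all windows was 58.0%, and the 42.6% share was not matched for this content. Matches that overlap were counted separately, as in the last run of capitals of CHRNA3, so these are not all separate sites. The CHRNB2 window held 0 GC boxes at 60.4% G or C, so not every window of the subunits that moved together held a match. The CHRNA9 window also held 0, at 58.0%. CHRNA7, which moved with CHRNA3, had 6 boxes in each of its entries. CHRNB1 had 2 boxes and CHRNA1 had 0. The third box of CHRNB4 lies in the last bases of its window, which overlap an annotated exon and are not shown. A match to these letters is a description of the window and not evidence of a bound factor.

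The first question was how ZMYND8 overexpression relates to subunit RNA in ATRA-treated cells, compared within the overexpression experiment. Parental cells have no named vector or selection, so the transgene, the lentivirus and G418 cannot be told apart in this comparison. Several subunits of the ganglionic and neuronal receptors were higher in ZMYND8 OE than in Parental cells, CHRNB2, CHRNB4, CHRNA3 and CHRNA7, by 6.49-fold to 15.3-fold. CHRNA9 was lower, and CHRNA5 and CHRNB1 differed by less than the threshold of a call. A gene was called at an adjusted p below 0.05 (edgeR quasi-likelihood test, Benjamini-Hochberg over all genes tested), a log2 fold change of 1 or more in either direction and a mean normalised count above 20. Standard errors (SE) are on the log2 scale. Of the 7 members with enough counts to be tested, 4 were called higher and 1 lower. Among all 20835 genes tested, 11.7% were called higher and 6.84% lower. All 7 passed the adjusted p alone, as did 60.8% of all genes. The median log2 fold change of the tested members was 2.70 against 0.03 for all genes tested. CHRNA1, CHRNA2 and CHRNA4 had too few counts and were left out of these figures. In bulk RNA, fewer cells of a type and less RNA per cell cannot be told apart.

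CHRNA3 (ENSG00000080644, chromosome 15 of GRCh38 from 78593052 to 78621295, minus strand) encodes the alpha 3 subunit, the ligand-binding partner in ganglionic receptors. Parental replicates gave 661 and 850 counts, and ZMYND8 OE replicates gave 8221 and 7225. Both OE libraries lay far above both Parental libraries. The normalised count, scaled to a common depth over all 8 libraries, was 806 ± 31.6 in Parental and 7978 ± 404 in OE cells (SD, n = 2), which was 3.31 log2 units higher in OE (SE 0.0624, adjusted p = 5.07e-11, edgeR).

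CHRNB4 (ENSG00000117971, chromosome 15 from 78624111 to 78727754, minus strand) encodes the beta 4 subunit and lies 2815 bases upstream of CHRNA3. It had 72 and 101 counts in Parental cells and 1114 and 881 in ZMYND8 OE cells, with no overlap. Its log2 fold change was 3.48 (SE 0.115, adjusted p = 1.76e-09, edgeR), next to 3.31 for CHRNA3. CHRNA3 per length was 9.61 and 8.81 times CHRNB4 in the Parental libraries, and 7.72 and 8.59 times in the OE libraries.

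CHRNA5 (ENSG00000169684, chromosome 15 from 78565520 to 78595269, plus strand) encodes the alpha 5 subunit, an accessory subunit that does not bind acetylcholine in the usual site. It overlaps the end of CHRNA3 on the opposite strand. It had 787 and 1062 counts in Parental cells and 1443 and 1235 in OE cells. These libraries did not overlap, but the difference was small, a log2 fold change of 0.50 (SE 0.0747, adjusted p = 0.000201, edgeR). As a result CHRNA3 per length was 0.639 and 0.609 times CHRNA5 in the Parental libraries and 4.33 and 4.45 times in the OE libraries. In other words the order of these neighbours turned over between the groups.

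CHRNB2 (ENSG00000160716, chromosome 1 from 154567778 to 154580013, plus strand) encodes the beta 2 subunit, the usual partner of alpha 4 in brain and of alpha 3 in part of the ganglionic receptors. It had the largest difference among the members called higher, with 235 and 256 counts in Parental cells and 4053 and 3679 in OE cells. The log2 fold change was 3.93 (SE 0.0810, adjusted p = 8.15e-11, edgeR). Its partner CHRNA4 (ENSG00000101204, chromosome 20 from 63343223 to 63378401, minus strand) was at 0 counts in Parental cells and had 2 and 6 counts in OE cells. Against a floor of 3 counts over the group this is 2.57-fold higher, a ratio without an interval at a level that counting error dominates. Alpha 4 RNA was therefore close to the limit of detection in cells with abundant beta 2 RNA.

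CHRNA7 (ENSG00000175344, chromosome 15 from 31923438 to 32173018, plus strand) encodes the alpha 7 subunit, which forms receptors on its own. It had 14 and 15 counts in Parental cells and 107 and 89 in OE cells, a log2 fold change of 2.70 (SE 0.261, adjusted p = 6.66e-06, edgeR). CHRNA7 counts are uncertain, because 34.4% of its exonic 31-base sequences occur elsewhere on the primary chromosomes, 25.4% occur in its partial copy CHRFAM7A, and 79.7% occur on alternate contigs. CHRFAM7A had 4 and 3 counts in Parental cells and 14 and 2 in OE cells, too few to be tested.

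CHRNA9 (ENSG00000174343, chromosome 4 from 40335333 to 40355217, plus strand) encodes the alpha 9 subunit, best known from hair cells of the inner ear. It went the other way, with 60 and 59 counts in Parental cells and 2 and 1 in OE cells. The summed counts were 41.2 times higher in Parental than in OE cells, with an exact 95% counting interval of 13.8 to 203. The fitted log2 fold change was -5.25 (SE 0.457, adjusted p = 2.96e-06, edgeR), a size that rests on 3 counts. Without Parental replicate 1, the mean fell under the count threshold, and CHRNA9 was no longer called at a log2 fold change of -5.12. Its usual partner CHRNA10 had 27 and 47 counts against 31 and 31, a log2 fold change of -0.28 (adjusted p = 0.441, edgeR).

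The subunits of the muscle receptor had few counts or differed by less than the threshold of a call. CHRNB1 (ENSG00000170175, chromosome 17 from 7445061 to 7457710, plus strand), the beta subunit of muscle, had 616 and 815 counts in Parental cells and 1046 and 1013 in OE cells, a log2 fold change of 0.49 (adjusted p = 0.0011, edgeR). CHRNA1, the muscle alpha subunit (ENSG00000138435, chromosome 2 from 174747592 to 174787935, minus strand), had 7 and 9 counts in Parental and 1 and 1 in OE cells, 8.31 times higher in Parental cells with an exact 95% counting interval of 1.95 to 74.5. CHRNA2 (ENSG00000120903, chromosome 8 from 27459756 to 27479883, minus strand), a neuronal alpha subunit, was at 0 counts in Parental cells and had 4 and 5 in OE cells. This is 2.89-fold above the floor of 3 counts, a ratio without an interval. CHRND and CHRNG, the delta and gamma subunits of muscle, had at most 8 counts in any library. CHRNE, the epsilon subunit of adult muscle, had 25 and 33 counts in Parental and 43 and 50 in OE cells, a log2 fold change of 0.65 (adjusted p = 0.0730, edgeR). None of the 6 skeletal muscle markers (MYOD1, MYOG, MYF5, CKM, ACTA1 and DES) had enough counts to be tested, and together they made at most 0.539 counts per 1000000 (CPM).

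**Figure D1:**
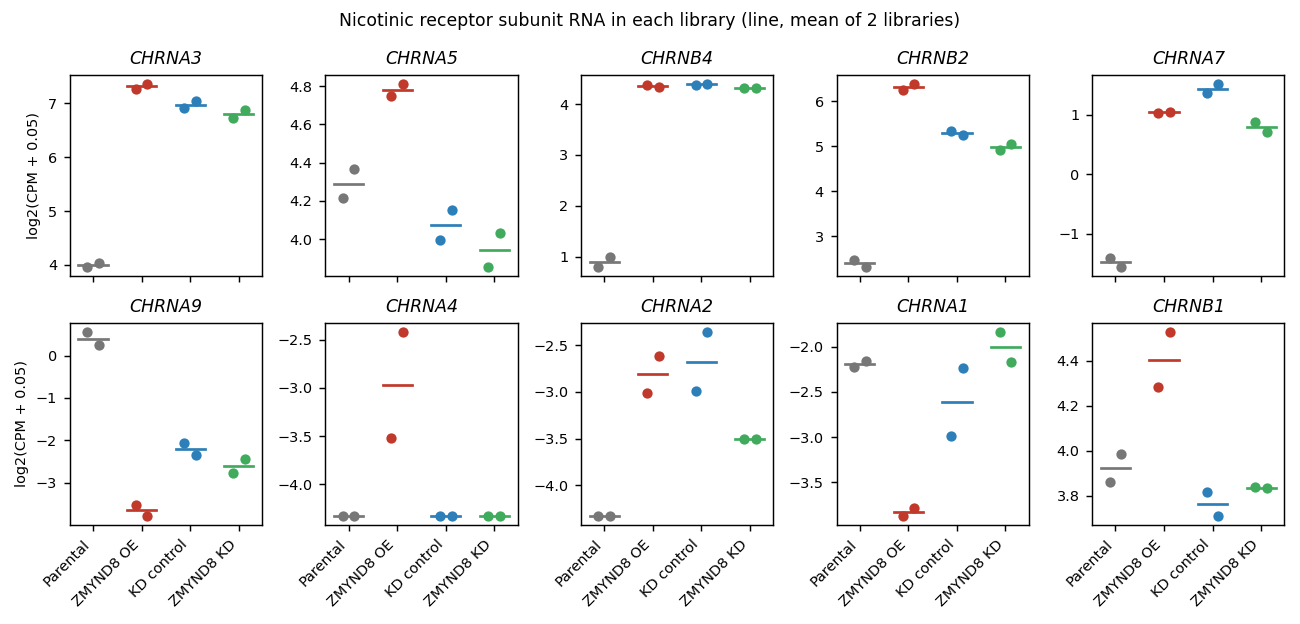
RNA of each of the 10 subunit genes as log2(CPM + 0.05) on the y axis, with a separate scale in each panel, for the 2 libraries of each group (points) and the mean of their log values (line). CHRNA3, CHRNB4, CHRNB2 and CHRNA7 are lowest in the Parental libraries, CHRNA9 is highest there, and CHRNA5 and CHRNB1 span under 1 log2 unit across all groups.

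The second question was what a lower level of ZMYND8 does to the same genes in the knockdown experiment. All differences were small, and no member was called of the 6 tested. Of all 19789 genes tested, 388 were called, or 1.96%. At the adjusted p alone, 2 of the 6 members passed, both lower in ZMYND8 KD, as did 24.3% of all genes, and 3 of the 6 passed at an unadjusted p below 0.05. DESeq2 likewise called 0 members. The median log2 fold change of the tested members was -0.15 against -0.01 for all genes tested.

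CHRNB2 had 2112 and 2098 counts in KD control cells and 1586 and 1730 in ZMYND8 KD cells. It was lower in KD by a log2 fold change of -0.30 (SE 0.0666, adjusted p = 0.00872, edgeR), which became 0.0650 without KD control replicate 1. CHRNA7 had 132 and 156 counts against 94 and 83, a log2 fold change of -0.65 (SE 0.176, adjusted p = 0.0219, edgeR). The adjusted p was 0.0603 with DESeq2 and 0.0625 with no filter on low counts. It was 0.143 without KD control replicate 2 and 0.0718 without ZMYND8 KD replicate 2, where the log2 fold change was -0.56 in both cases. CHRNA3 had 6289 and 7254 counts in KD control and 5541 and 6134 in ZMYND8 KD cells, a log2 fold change of -0.16 that missed the threshold (SE 0.0646, adjusted p = 0.0944, edgeR). It passed without KD control replicate 1, at -0.24 (adjusted p = 0.0485), and without ZMYND8 KD replicate 2, at -0.24 (adjusted p = 0.00746). CHRNB4 went from 1083 and 1165 counts to 1035 and 1035, a log2 fold change of -0.07 with a standard error of 0.0717. CHRNA5 (835 and 981 against 755 and 849 counts) and CHRNB1 (738 and 722 against 746 and 740) had log2 fold changes of -0.13 and 0.07.

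The members with few counts gave no clear difference in the knockdown. CHRNA9 had 10 and 8 counts in KD control and 5 and 7 in KD cells, a ratio of 0.689 with an exact 95% interval of 0.303 to 1.51. CHRNA1 had 4 and 9 counts against 12 and 9, and CHRNA2 had 4 and 8 against 2 and 2, with intervals of the ratio from 0.797 to 3.63 and from 0.0809 to 1.14. CHRNA4 had 0 counts in all libraries of this experiment. One further subunit gene was called, the epsilon subunit gene CHRNE, with 51 and 37 counts in KD control and 18 and 14 in KD cells. Its log2 fold change was -1.41 (SE 0.330, adjusted p = 0.0108, edgeR), the adjusted p was 0.108 without KD control replicate 1, and DESeq2 left it without an adjusted p. In addition, 48.6% of the exon bases of CHRNE overlap C17orf107 on the opposite strand, and a strand setting of the counting is not given in the sources used here.

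**Figure D2:**
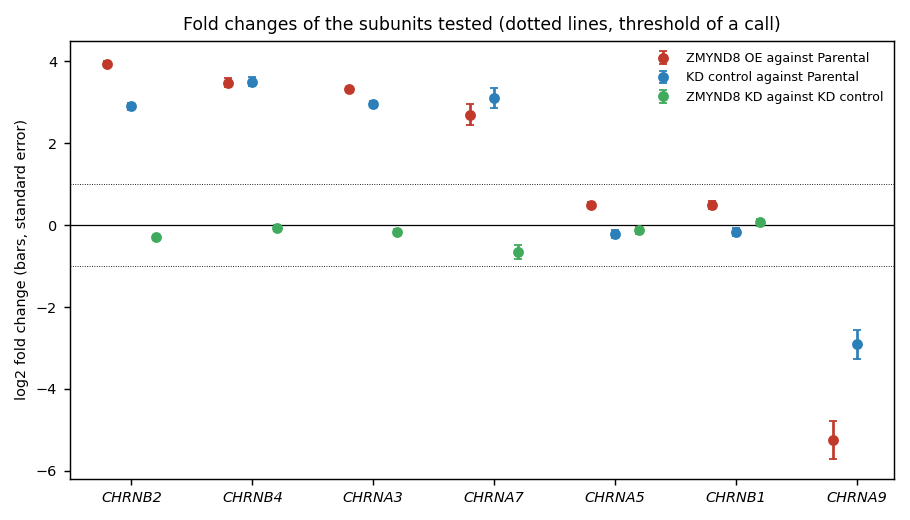
Log2 fold change on the y axis, with its standard error, of the 7 tested subunit genes in 3 comparisons. The red and blue points share the Parental libraries and lie between 2.70 and 3.93 for CHRNB2, CHRNB4, CHRNA3 and CHRNA7, whereas the green points of the knockdown, which CHRNA9 lacks, lie between -0.65 and 0.07.

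Whether the effects of overexpression and knockdown differ was tested in 1 model over all 8 libraries. The contrast was the OE effect minus the KD effect, called at an adjusted p below 0.05 alone. The OE effect here is OE against Parental cells, with the lentivirus and G418 selection included. The contrast uses the same libraries as the overexpression and knockdown comparisons, and the members differed little in the knockdown. Its values for the members therefore largely repeat the overexpression comparison. Of 22619 genes tested, 24.6% were called higher and 24.4% lower, so a call in this contrast was common. Of the 7 members tested, 6 were higher and 1 was lower. The difference was 4.22 log2 units for CHRNB2 (SE 0.111), 3.54 for CHRNB4 (0.129), 3.47 for CHRNA3 (0.0973) and 3.34 for CHRNA7 (0.307). For CHRNA5 it was 0.62 (SE 0.123, adjusted p = 0.000696, edgeR), and for CHRNA9 -4.74 (SE 0.799, adjusted p = 0.000166, edgeR). CHRNB1 differed by 0.41 (adjusted p = 0.0179, edgeR), and this adjusted p was 0.0626 with DESeq2 and 0.0656 without KD control replicate 1, 0.0765 without Parental replicate 1 and 0.0944 without ZMYND8 OE replicate 2.

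The levels across all 4 groups showed that the Parental libraries stood apart. Cells of the knockdown experiment, whose labels name no ZMYND8 transgene, had CHRNA3, CHRNB4, CHRNB2 and CHRNA7 at levels nearer to ZMYND8 OE than to Parental cells on the log2 scale. The contrast of KD control with Parental cells shares the Parental libraries with the overexpression comparison, and in it the experiment, Dox and any vector cannot be told apart. In the 8-library model 4 members were called higher in KD control cells and 1 lower, where 9.65% of all genes were called higher and 9.83% lower. The log2 fold change was 3.50 for CHRNB4 (SE 0.101), 3.10 for CHRNA7 (0.237), 2.97 for CHRNA3 (0.0738) and 2.90 for CHRNB2 (0.0865). CHRNA9 was lower by a log2 fold change of -2.91 (SE 0.351, adjusted p = 3.75e-06, edgeR). ZMYND8 RNA differed between these control groups by a log2 fold change of only -0.24, towards less in KD control cells. CHRNA5 had a log2 fold change of -0.22 that passed the adjusted p (0.0402, edgeR) but not with upper quartile normalisation or DESeq2 (0.118 and 0.0676), nor without KD control replicate 1 or Parental replicate 2 (0.257 and 0.318). CHRNB1 had -0.16 (adjusted p = 0.148, edgeR).

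Summed markers of cell state also set the Parental libraries apart, although single markers did not all follow. The 6 sympathetic markers summed to 105 to 108 CPM in Parental cells, 401 to 429 in ZMYND8 OE, 492 to 530 in KD control and 424 to 489 in ZMYND8 KD cells. The differences in this sum are carried mainly by STMN2. Its mean was 15.8 CPM in Parental, 254 in OE, 332 in KD control and 302 in KD cells. The 10 subunit genes summed to 57.7 and 61.2 CPM, 297 and 321, 213 and 224, and 187 and 203 in the same order of groups. The 7 mesenchymal markers (PRRX1, FOSL1, FN1, CD44, VIM, SNAI2 and COL1A1) ran the other way, with 9250 to 9780 CPM in Parental, 3083 to 3276 in OE, 4468 to 4634 in KD control and 5659 to 6056 in KD cells. This sum is carried mainly by COL1A1, VIM and FN1. PRRX1 had means of 966 CPM in Parental, 182 in OE, 129 in KD control and 65.4 in KD cells. It fell in the knockdown (log2 fold change -0.98, adjusted p = 8.13e-07, edgeR), whereas the sum rose. CD44 instead was lowest in OE cells, with a mean of 537 CPM in Parental, 91.2 in OE, 614 in KD control and 801 in KD cells. In KD control against Parental cells, FOSL1 (log2 fold change 0.99) and SNAI2 (0.35) passed the adjusted p as higher, whereas 3 of the 7 mesenchymal markers were called lower. Of all genes tested there, 9.83% were called lower. In the OE comparison 3 of the 5 tested sympathetic markers were called higher, STMN2, CHGA and DBH. GATA3 (log2 fold change 0.82) and ISL1 (0.41) were not called there, nor was ISL1 in KD control against Parental cells (0.15). In the OE comparison 5 of the 7 mesenchymal markers were called lower, led by CD44, PRRX1 and COL1A1. Among all genes tested in it, 11.7% were called higher and 6.84% lower. The 4 markers of Schwann cells or glia made 1.31 to 3.60 CPM, and SOX10, which defines that lineage, had at most 1 count. S100B, from the same list, had 12 and 11 counts in Parental and 106 and 104 in OE cells. It was called higher in OE (log2 fold change 3.14, adjusted p = 4.11e-06, edgeR) and in KD control against Parental cells (2.97). It was the only 1 of the 3 tested glial markers called in either comparison. The part of cell state in the subunit differences was not tested.

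Subunits can be ranked within a group only per length, in CPM per kilobase of exon (RPKM). In Parental cells CHRNA5 led with 5.39 ± 0.395, followed by CHRNB1 with 3.49 ± 0.208 and CHRNA3 with 3.36 ± 0.132 (SD, n = 2 each). CHRNB1 and CHRNA3 differed there by less than the SD of CHRNB1. CHRNB2 (0.891 ± 0.0694), CHRNA9 (0.403 ± 0.0604) and CHRNB4 (0.366 ± 0.0368) came next, the last of these within 1 SD of each other, and CHRNA1 (0.0340) and CHRNA7 (0.0146) trailed. CHRNA7 is divided by 21248 exon bases, where the other members have 3164 to 11897, which lowers its RPKM.

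In the other groups CHRNA3 came first and CHRNB2 second. In ZMYND8 OE cells CHRNA3 reached 33.3 ± 1.69 RPKM and CHRNB2 13.5 ± 0.997, ahead of CHRNA5 with 7.57 ± 0.242, CHRNB1 with 4.90 ± 0.583 and CHRNB4 with 4.08 ± 0.0976 (SD, n = 2 each). In KD control cells CHRNA3 had 26.3 ± 1.69, CHRNB2 6.64 ± 0.274, CHRNA5 4.64 ± 0.359, CHRNB4 4.18 ± 0.0636 and CHRNB1 3.13 ± 0.162. In ZMYND8 KD cells the values were 23.5 ± 1.78, 5.40 ± 0.352, 4.24 ± 0.367, 3.98 ± 0.0156 and 3.28 ± 0.00636 for the same order of genes. CHRNA5 and CHRNB4 differed by less than 1 SD of CHRNA5 in KD cells. CHRNB4 was thus nearly level between OE, KD control and KD cells, whereas CHRNB2 was highest in OE cells.

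**Figure D3:**
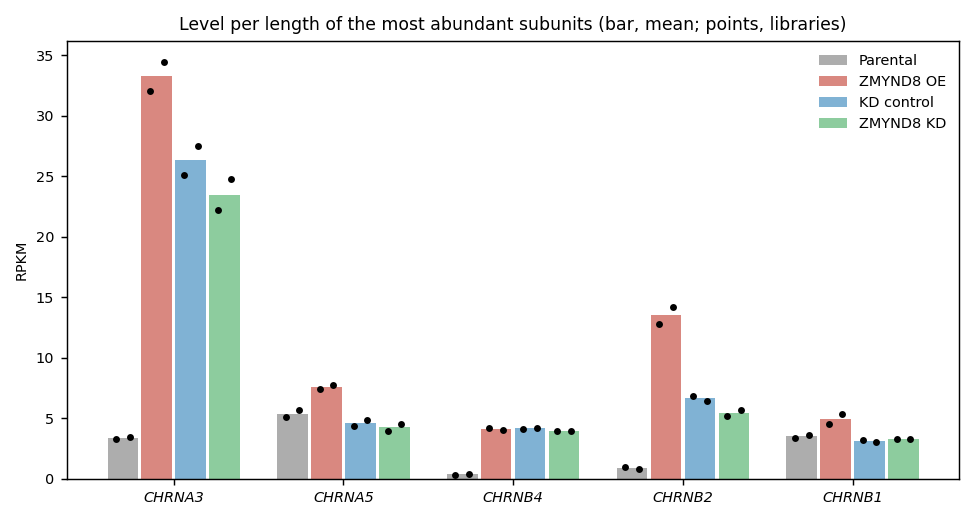
RPKM on the y axis (linear, from 0) for the 5 most abundant subunit genes in the 4 groups, where bars are means and points the 2 libraries. CHRNA3 rises from 3.36 in Parental to 33.3 in ZMYND8 OE cells, while CHRNA5 moves only between 4.24 and 7.57 over all groups.

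Within the cluster on chromosome 15, CHRNA3 made up 36.9% ± 0.834 of the summed RPKM of CHRNA3, CHRNA5 and CHRNB4 in Parental cells, and CHRNA5 made up 59.1% ± 0.679 (SD, n = 2). In ZMYND8 OE cells the shares were 74.0% ± 0.743 for CHRNA3 and 16.9% ± 0.148 for CHRNA5. KD control and ZMYND8 KD cells had 74.9% ± 0.311 and 74.1% ± 0.559 CHRNA3. The share of CHRNB4 was 4.01% in Parental cells and 9.10%, 11.9% and 12.6% in OE, KD control and KD cells.

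The surroundings of the cluster showed how far this pattern reached. A span of 100 kb on each side of the cluster holds 17 genes, of which 9 were tested in the OE comparison. Only CHRNA3, CHRNB4 and the lncRNA ENSG00000261762 were called among these 9. The other tested genes, IREB2, HYKK, PSMA4, ADAMTS7, MORF4L1 and CHRNA5, had log2 fold changes between -0.37 and 0.50. The lncRNA lies on the minus strand, like CHRNA3, from 78589123 to 78591276, 1775 bases past the 3′ end of CHRNA3. It had 54 and 62 counts in Parental cells, 498 and 378 in OE, 858 and 984 in KD control and 677 and 753 in KD cells. Its log2 fold change was 2.86 in the OE comparison (SE 0.145, adjusted p = 4.19e-08, edgeR) and -0.31 in the KD comparison (SE 0.0911, adjusted p = 0.0294, edgeR). The latter adjusted p was 0.193 without KD control replicate 2, 0.129 without ZMYND8 KD replicate 1 and 0.0967 with no filter on low counts. KD control against Parental cells gave 3.79 (SE 0.128). Unlike CHRNA3, its counts in OE cells lay below those in both groups of the knockdown experiment. Of the exon bases of CHRNA5, 23.0% overlap this lncRNA and 5.47% overlap CHRNA3, each on the opposite strand, and without a known strand setting reads from these stretches cannot be assigned.

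**Figure D4:**
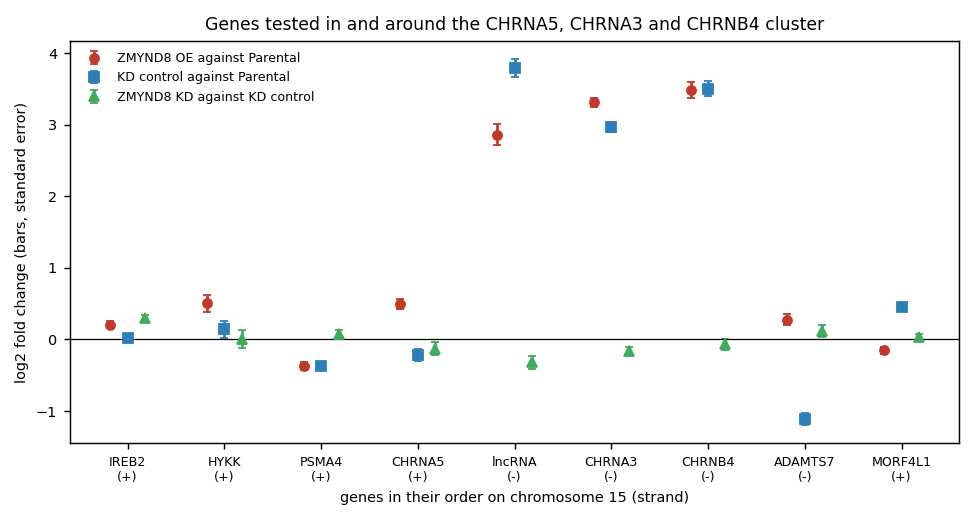
Log2 fold change on the y axis, with its standard error, of the 9 genes tested in and within 100 kb of the CHRNA5, CHRNA3 and CHRNB4 cluster, in their order on the chromosome with their strand. The lncRNA ENSG00000261762, CHRNA3 and CHRNB4, all on the minus strand, lie between 2.86 and 3.79 in both comparisons with Parental cells, and ADAMTS7 lies at -1.11 in KD control against Parental cells.

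The 5 genes whose profile over the 8 libraries came nearest to CHRNA3 were IGSF9B, PEG3, MAOB, DACH1 and LINC00682. Likeness was the root mean square distance between centred log2(CPM + 0.05) profiles among 17689 other genes with a mean normalised count above 20. The distances ran from 0.0597 for IGSF9B, a cell adhesion gene of inhibitory synapses, to 0.102 for LINC00682. IGSF9B had 515 and 659 counts in Parental, 6631 and 5367 in OE, 4719 and 5767 in KD control and 4059 and 4343 in KD cells. MAOB, a monoamine oxidase, had 143 and 170, 1827 and 1668, 1529 and 1759, and 1251 and 1395 counts in the same order. Among the members, CHRNB4 was nearest to CHRNA3, at 0.261 and rank 75, then CHRNB2 at 0.324 and rank 133 and CHRNA7 at 0.345 and rank 157. CHRNA5, its neighbour on the chromosome, was at rank 7106.

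Other genes of the cholinergic synapse were followed in lists. Acetylcholine handling covers its synthesis, transport and breakdown. In the OE comparison 4 of the 7 tested genes of this list were called higher and 1 lower, where 11.7% of all genes were called higher and 6.84% lower. The median log2 fold change of the list was 2.64 against 0.03 for all genes tested. SLC5A7, the high-affinity choline transporter, fell from 3420 and 4518 counts in Parental cells to 181 and 131 in OE cells, a log2 fold change of -4.71 (adjusted p = 3.63e-11, edgeR). BCHE, butyrylcholinesterase, had 5 and 10 counts against 170 and 147 (log2 fold change 4.34). SLC18A3, the vesicular acetylcholine transporter, had 62 and 98 against 590 and 626 (2.90). ACHE, acetylcholinesterase (2.64), and COLQ, its collagen tail (1.54), were the other called genes, named here after their values were seen. KD control against Parental cells, which shares the Parental libraries, gave log2 fold changes of -2.84 for SLC5A7, 3.09 for SLC18A3 and 1.41 for ACHE, all called, whereas BCHE, at 0 and 5 counts in KD control, had -1.73 and was not called. CHAT, the synthetic enzyme, had at most 5 counts in the libraries of the overexpression experiment and was not tested there. It had 18 and 34 counts in KD control against 0 and 1 in Parental cells. That log2 fold change was 5.21 (adjusted p = 3.53e-05, edgeR), uncalled because its mean of 12.3 was under the count threshold. In the knockdown CHAT had a log2 fold change of -0.09. In the knockdown none of the 7 tested genes was called (edgeR or DESeq2), with SLC18A3 at a log2 fold change of -0.61 (adjusted p = 0.00176), the only gene of the list to pass either p at 0.05.

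Proteins that fold, assemble or modulate nicotinic receptors split in direction. Of the 13 tested of 16, 3 were called higher and 2 lower in ZMYND8 OE, with a median log2 fold change of 0.02 against 0.03 for all genes tested. Among all genes tested, 11.7% were called higher and 6.84% lower. RIC3, a chaperone best known for alpha 7 assembly, rose from 36 and 42 counts in Parental cells to 560 and 487 in OE cells (log2 fold change 3.70, standard error 0.147, adjusted p = 6.49e-09, edgeR). It had 326 and 394 counts in KD control and 212 and 298 in KD cells, a log2 fold change of -0.45 that missed the threshold (adjusted p = 0.0748). LYNX1, a membrane-anchored Ly6 protein that dampens receptor currents, rose with a log2 fold change of 1.25, and LYPD6B, another Ly6 protein, fell with -2.09. TMEM35A, also called NACHO, an assembly factor (1.14), and LYPD1 (-1.05) were the remaining called genes and were named after their values were seen. The fold threshold was missed by LYNX1 under the correction for gene length and GC content, at 0.90, and by LYPD1 with upper quartile scaling, at -0.98, and without Parental replicate 2, at -0.96. In the knockdown, where 1.96% of all genes were called, LY6E alone of the list was called, at -2.41. This rested on KD control replicate 2, with 448 counts beside 55 in the other control library. Without that library the log2 fold change was -0.28 (adjusted p = 0.601, edgeR), and DESeq2 gave an adjusted p of 0.152 with all libraries.

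All 3 tested muscarinic receptor genes, which encode the G protein-coupled acetylcholine receptors, rose in ZMYND8 OE. All 3 were called higher, where 11.7% of all genes were. CHRM2 had 4 and 5 counts in Parental and 58 and 67 in OE cells (log2 fold change 3.73). CHRM4 (2.56) and CHRM3 (1.22) followed. CHRM2 was also called higher in KD control against Parental cells, which shares the Parental libraries. It had 57 and 53 counts in KD control cells (log2 fold change 3.38, adjusted p = 1.65e-06, edgeR). CHRM3 (0.18) and CHRM4 (0.01) were not called in that contrast, where 9.65% of all genes were called higher. In the knockdown, CHRM4 was called lower among 4 tested at -1.02 (adjusted p = 0.0368, edgeR), which was 0.144 without KD control replicate 1, 0.137 without KD control replicate 2 and 0.167 without ZMYND8 KD replicate 1. It was 0.0803 with no filter on low counts, and the correction for gene length and GC content put the log2 fold change at -0.99. Of the 5 genes that cluster receptors at the muscle endplate, such as AGRN and LRP4, 3 were tested in the OE comparison. None was called (edgeR or DESeq2), although 2 passed both the unadjusted and the adjusted p. These were LRP4, at a log2 fold change of -0.80, and DOK7, at 2.83 with a mean of 18.6, under the count threshold. AGRN, at 0.09, did not pass. Of all genes tested there, 60.8% passed the adjusted p. In KD control against Parental cells AGRN (-1.47) and LRP4 (-2.25) were called lower, where 9.83% of all genes were. DOK7 was named after its value was seen.

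Transcription factors linked to these promoters or to sympathetic neurons were taken from a further list of 9 genes. In ZMYND8 OE 1 of the 8 tested was called higher, where 11.7% of all genes were called higher. The median log2 fold change of the list was 0.52 against 0.03 for all genes tested. The called gene was HAND2, a factor of sympathetic neurons. It had 4672 and 5676 counts in Parental, 20099 and 17392 in OE, 12279 and 13474 in KD control and 9771 and 11151 in KD cells. Its log2 fold change was 1.81 in OE (SE 0.0508, adjusted p = 5.77e-10, edgeR). In the knockdown it was -0.25 (adjusted p = 0.0181, edgeR), short of a call. At the adjusted p alone 7 of the 8 passed in OE, 5 higher and 2 lower, where 60.8% of all genes passed. The higher ones were HAND2, POU4F1 (2.58, at a mean under the count threshold), GATA3 (0.82), PHOX2A (0.63) and ISL1 (0.41). The lower ones were the repressor REST (-0.61, adjusted p = 2.29e-06, edgeR) and the GC box factor SP1 (-0.35, adjusted p = 8.43e-05, edgeR). SP3 (-0.11, adjusted p = 0.0706, edgeR) did not pass. Those besides HAND2 were named after their values were seen. REST had means of 150 CPM in Parental, 97.9 in OE, 238 in KD control and 255 in KD cells. REST was thus higher, not lower, in KD control than in Parental cells (log2 fold change 0.66, adjusted p = 2.68e-08, edgeR). A part of REST in the subunit differences was not tested. In the knockdown none of the 8 tested was called (edgeR or DESeq2), while 4 passed at an unadjusted p below 0.05 and 3 at the adjusted p. Of all genes tested there, 24.3% passed the adjusted p.

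**Figure D5:**
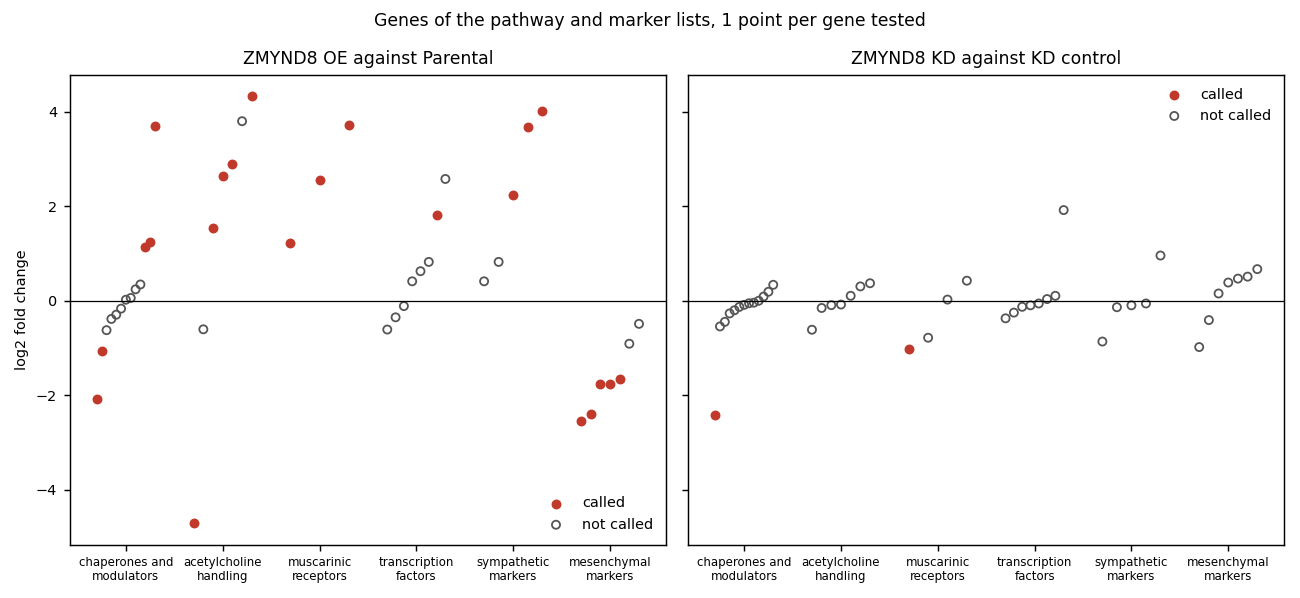
Log2 fold change on the y axis of each tested gene (1 point) of 6 lists, in ZMYND8 OE against Parental (left) and ZMYND8 KD against KD control (right), where filled points were called. Acetylcholine handling, muscarinic receptors and sympathetic markers lie mostly above 0 on the left with SLC5A7 at -4.71, mesenchymal markers lie below 0, and on the right only LY6E and CHRM4 were called.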

How the data were processed

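RNA-seq was available for 8 libraries, 2 biological replicates in each of 4 groups of SK-N-SH cells, grouped by the treatment in their labels. The authors deposited 1 table of raw counts per gene, made by trimming, alignment to hg38 with HISAT2 and counting with featureCounts. The strand setting and the treatment of reads with several matches are not given in the sources used here. Identifiers of 60418 of the 60659 genes matched GENCODE release 44, which gave symbols and exon overlaps, and 3 broken lines were left out. Coordinates and exon lengths are those of the table.

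Genes passed filterByExpr, libraries were scaled by TMM, and quasi-likelihood tests, all two-sided, were run in edgeR 4.0.16 (R 4.3.3). The overexpression and knockdown comparisons used their own 4 libraries, and the other contrasts used all 8. The p-values measure the spread between these replicates. Low counts were compared as summed counts over library size, with exact binomial intervals at 95%, which cover counting error only. A sum of 0 was set to a floor of 3 counts, and the ratio to this floor has no interval. Depth per library was 38316523 to 56256979 counts. Fits were tried on simulated counts with changes set in a small share of well-counted genes and more spread than estimated here. That trial does not cover genes with few counts or the large share of genes that differed here. The alternatives were RLE and upper quartile scaling, DESeq2 (1.42.0), no filter, a replicate block, corrections for gene length (loess, span 0.5), all 8 libraries in 1 fit, other thresholds and leaving out each library. A correction for length and GC content was added after seeing the data.

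The members, the pathway and marker lists and the tests were chosen with earlier results of these data known. Results for 2 genes of these lists are not reported here, and the lists were counted without them. Genes named are the members, ZMYND8, up to 3 called genes per list with the largest change, genes within 100 kb of the cluster or overlapping a member, and the 5 profiles nearest to CHRNA3.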

Additional observations from a re-analysis of the deposited data

How the results depend on the processing

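Over the alternatives, CHRNB2, CHRNB4, CHRNA3 and CHRNA7 stayed called in the overexpression comparison, with log2 fold changes of 3.77 to 4.01, 3.37 to 3.59, 3.24 to 3.39 and 2.60 to 2.78, except that CHRNA7 has too low a mean for a threshold of 100. Leaving out each library gave 3633 to 4104 genes and 4 to 5 members called there, 343 to 462 genes and 0 members in the knockdown, 9949 to 10338 genes and 7 to 8 members for the difference of effects, and 4188 to 4516 genes and 5 members for KD control against Parental. With no threshold on fold change, 11320, 4707 and 12677 genes were called in the overexpression, knockdown and control comparisons, and 2 members in the knockdown. With a mean normalised count above 100, the genes called were 2329, 174 and 2606, and 3 members were called in the overexpression and control comparisons each. Both follow from the thresholds themselves. DESeq2 and no filter called 280 and 311 genes in the knockdown, and for the difference of effects no filter called 9 members, CHRNA1 and CHRNA2 among them. Of the genes refitted under the alternatives, 3 changed sign, all uncalled in the overexpression comparison. ADAMTS7 had -0.062 and SP3 0.080 under the correction for gene length and GC content (adjusted p = 0.497 and 0.182, edgeR), and CHRNA10 ranged from -0.52 without Parental replicate 1 to 0.010 without Parental replicate 2. SP3 passed the adjusted p (0.0482) with all 8 libraries in 1 fit. The cause was not tested. The 5 genes nearest to CHRNA3, the marker genes, POU4F1, PHOX2A and the endplate genes were not refitted. Fewer than 20 counts per library limit CHRNA1, CHRNA2, CHRNA4, CHRNA7 in Parental cells and CHRNA9 outside them.

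Replicates of the same number share only that number in the labels. The correlation of their deviations from the group means was 0.12 in the overexpression experiment and 0.228 in the knockdown experiment, with 2 pairs each. With a replicate block the overexpression comparison had 3874 genes called and the knockdown 393, and the members called were as before in every comparison. CHRNA3 in the knockdown then passed the adjusted p, at a log2 fold change of -0.16 (adjusted p = 0.00674, or 0.0133 with the gene length correction, edgeR).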
